A study of Mus musculus with 3 samples.

Results

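Nonsense-mediated decay (NMD) is the pathway by which cells degrade mRNAs whose reading frame stops too early. During splicing, a protein complex is left just upstream of each exon junction. When a ribosome terminates well before the last junction, the complexes still bound downstream recruit UPF1 and the SMG proteins, and the mRNA is cut, decapped and digested, mostly in the cytoplasm. Splicing regulators are known for using this route on themselves, by including or skipping exons that bring in a stop codon, and ribosomal protein genes are known for doing the same. Annotators mark transcripts with such a stop codon as NMD transcripts from their structure, so the name is a prediction and not a measurement of decay.

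The transcripts described here carry the type nonsense_mediated_decay in the GENCODE M21 mouse annotation and were selected on their measured level. They were chosen by a TPM of at least 1 in all 3 libraries of the deposited transcript table with expected counts, called the first quantification here. TPM is a level per unit of transcript length, scaled to a fixed total in each library. The selection kept 495 of 7186 NMD transcripts, and these lay in 445 genes, of which 398 held 1 of them, 44 held 2 and 3 held 3. The share of a transcript is its percentage of the summed TPM of all transcripts of its gene in the same library. The first quantification both chose the transcripts and gave their levels and shares, which are therefore a description with no test. The second quantification, a deposited table with estimated counts, was made from the same libraries, so it checks the assignment of reads to transcripts and not the cells.

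The libraries were made from the cytosolic fraction of C57BL/6J mouse bone-marrow-derived macrophages, as ribosome-depleted total RNA. All cells had received Lipid A, the part of bacterial lipopolysaccharide that TLR4 senses, at 100 ng/ml for 12 h, then a washout of 12 h, then Lipid A again at 100 ng/ml for 120 min. There was 1 group with 3 biological replicates and no untreated library among the samples analysed here, so no comparison between conditions was made. The replicates share 1 donor entry, and the labels do not tell whether different mice or cultures stand behind them, so the spread between them can be purely technical. Age and sex were not recorded.

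The first quantification held 29376859, 64822118 and 37665843 expected counts in replicates 1, 2 and 3. All 8 macrophage markers were above 1 TPM in every library. None of the T cell, B cell, fibroblast and erythroid markers reached 1 TPM, while 1 of 3 neutrophil and 1 of 3 endothelial markers did, with summed levels of at most 2.62 and 3.94 TPM. The nuclear RNAs Malat1 and Neat1 summed to 205 and 144 TPM in replicates 1 and 2 and to 1007 TPM in replicate 3. The part that nuclear RNA plays in the values below was not tested. In bulk RNA, fewer cells with a transcript and less of it per cell cannot be told apart, nor can slow decay and fast synthesis.

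Each NMD transcript was set beside a coding partner, the complete protein_coding transcript with the same start codon and the highest mean TPM, which 354 of the 495 had. In 336 of these the reading frame left the partner's before the end, and the stop codon came a median of 44 bases later, with quartiles of 17 and 96.5. Each pair of lines below starts with the last 12 bases of coding sequence that both transcripts use, and the NMD line ends with its stop codon in capitals. Only pairs whose window is at most 66 bases are shown, which leaves out the abundant Lilrb4a-205, Rpsa-206, Lilr4b-204 and Mx1-205, with 83, 147, 185 and 299 bases from divergence to stop. The pairs are those of 4 of the most abundant NMD transcripts, of 4 from RNA-binding protein genes and of Hyi-202, which holds nearly all of its gene's TPM.
Rgs1-204: gccaaagactttaTAA
Rgs1-208: gccaaagacttttgga
Ppia-201: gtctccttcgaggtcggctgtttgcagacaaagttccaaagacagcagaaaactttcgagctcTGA
Ppia-202: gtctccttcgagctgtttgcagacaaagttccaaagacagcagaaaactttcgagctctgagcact
Ctsh-202: tggatgaaacagtggcatTGA
Ctsh-201: tggatgaaacagcatcaaaag
Ostf1-205: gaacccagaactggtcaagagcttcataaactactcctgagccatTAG
Ostf1-204: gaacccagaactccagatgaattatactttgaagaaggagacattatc
Ddx5-205: aggcgcaccgcaatgTGA
Ddx5-201: aggcgcaccgcacaagag
Ddx5-208: ccagagggctaggtTAG
Ddx5-201, at the same place: ccagagggctagatgtg
Tardbp-228: actatcccaaaggtcaagaaagatctTAA
Tardbp-204: actatcccaaagataacaaaaggaaaatg
Syncrip-203: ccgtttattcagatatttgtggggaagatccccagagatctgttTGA
Syncrip-210: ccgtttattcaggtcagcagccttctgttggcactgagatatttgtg
Hyi-202: acacgccgcggggatccaccTGA
Hyi-201: acacgccgcggggagaccatgag

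These sequences are from the GENCODE M21 transcripts, whose coordinates are on mm10, and each window spans an exon junction or the edge of a retained intron. In Rgs1-204 a different acceptor site leaves 1 base between the point of divergence and the stop codon at chr1:144248605-144248607 on the minus strand. Ppia-201 uses a different donor site and runs 51 further bases to its stop at chr11:6418241-6418243 on the plus strand. The way leads through the lengthened end of the exon and then through bases that the coding transcript reads in another frame. Ctsh-202 skips an exon and stops 6 bases later at chr9:90062723-90062725 on the plus strand. Ostf1-205 includes an exon that carries the stop at chr19:18598954-18598956 on the minus strand. Ddx5-205 skips an exon and stops at chr11:106782679-106782681 on the minus strand, and Ddx5-208 reads 2 bases into a retained intron to a stop at chr11:106783954-106783956. Tardbp-228 and Hyi-202 skip an exon and stop at chr4:148620716-148620718 on the minus strand and chr4:118361624-118361626 on the plus strand. Syncrip-203 has another donor site and a stop at chr9:88476931-88476933 on the minus strand.

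Over all 495 NMD transcripts, 493 had their stop codon more than 50 bases before the last exon junction. The distance had a median of 357 bases, with quartiles of 175 and 718. The shortest distance was 29 bases, in Xaf1-201, and the longest was 7549. After the stop codon 118 transcripts had 1 junction and 377 had 2 or more. Of 10480 protein_coding transcripts at 1 TPM or more with a stop codon and several exons, 27 had such a stop. This contrast restates how the annotation types transcripts and was not tested. The 495 did not stand far from the other NMD transcripts in this respect, whose median distance was 332 bases over 6691 transcripts.

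**Figure D1:**
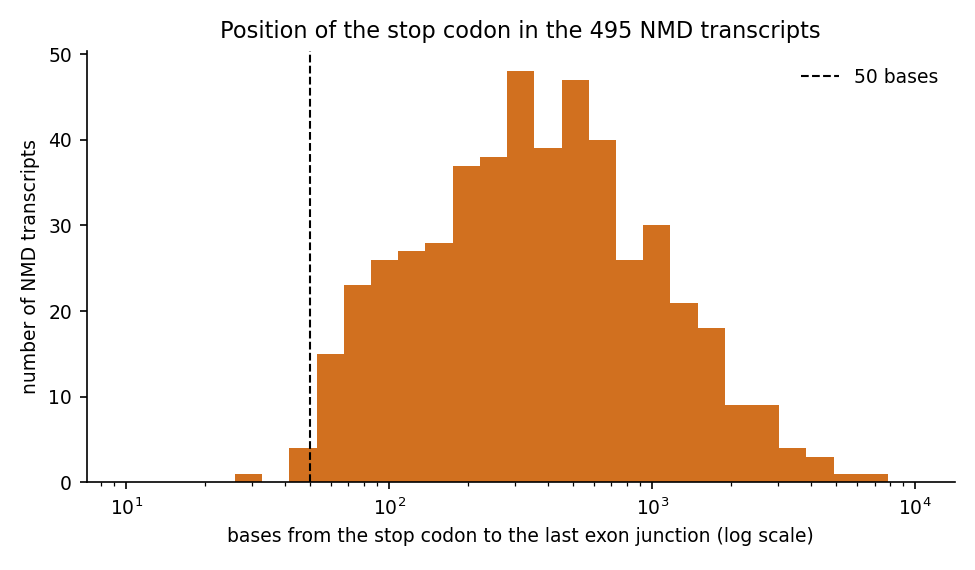
Number of NMD transcripts (vertical axis) by the number of bases from the stop codon to the last exon junction (horizontal axis, log scale), for the 495 transcripts at 1 TPM or more. The dashed line marks 50 bases, and 493 transcripts lie to its right, with a median of 357.

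Where the frame left the partner's, the first difference was most often a skipped exon, in 101 transcripts. An included exon came next with 87, an alternative donor site with 78 and an alternative acceptor site with 68. A retained intron was the first difference in only 2 of the 495, against 90 of the 6691 other NMD transcripts (1.35%). Differences further along the frame were not classed, and the stop could lie far beyond the first. In Gbp5-202, with an included exon, it lay 522 bases beyond, and the predicted protein had 724 residues against 590 in the partner. A further 130 had a start annotated as incomplete, so their frame could not be compared from the start codon. In 18 the reading frame ran unchanged to the partner's own stop, and the junctions downstream of it lay in the 3′ untranslated part. The stop codon fell within coding bases of a protein_coding transcript in 288 transcripts (58.2%), outside all exons of protein_coding transcripts in 148 (29.9%), and on the very stop codon of one in 48 (9.70%). Among 354 stop codons read from the transcripts whose frame was followed to the stop, 183 were TGA, 95 TAA and 76 TAG.

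The predicted proteins were short, with a median of 93 residues over all 495. In the 354 pairs with a shared start codon the medians were 90 residues for the NMD transcript and 341 for the partner, and 240 were less than 50% of the partner's length. Many of these transcripts differ from their gene's others by junctions alone. No base of their own was held by 329, and 223 of these had exactly 1 junction of their own. Neither a base nor a junction of its own was held by 83, so their TPM rests on how reads were divided among overlapping transcripts.

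NMD transcripts took a small part of the RNA of protein-coding genes. They held 1.70%, 1.76% and 1.64% of the summed TPM of protein-coding genes in replicates 1, 2 and 3, and 2.04%, 2.11% and 1.99% in the second quantification. Retained-intron transcripts held 3.06%, 3.56% and 4.11%, highest in the replicate with the most Malat1 and Neat1. The order did not hold below it, as replicate 2 had the least of both RNAs but lay above replicate 1. The 495 transcripts made up 83.8%, 82.8% and 81.5% of the TPM of all NMD transcripts. The rest was spread thinly, as 2949 NMD transcripts were at 0 in every library. The rule kept 6.89% of NMD transcripts, 19.1% of protein_coding and 2.79% of retained_intron transcripts.

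Within their own genes the 495 transcripts held more. Their share had a median of 21.7%, 22.5% and 19.7% in replicates 1, 2 and 3. As a mean over libraries it was under 10% in 123 transcripts, between 10% and 50% in 301 and at 50% or more in 71. Protein_coding transcripts at 1 TPM or more, in genes with several transcripts, had a median share of 60.1% and retained_intron transcripts 20.3%. A share of 50% or more in all libraries was held by 47 of 494 NMD transcripts (9.51%), whereas 47.4% of all transcripts at 1 TPM or more did so. The highest share of the gene in all libraries was held by 89 of 494 (18.0%), against 55.7% of all. Gm20716-201 is left out of both counts, since it is the only transcript of its gene. The NMD transcript was above its partner of the same start codon in all libraries in 104 of 354 pairs. The rule is on TPM and not on share, but a transcript of a weakly expressed gene needs a high share to reach 1 TPM.

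**Figure D2:**
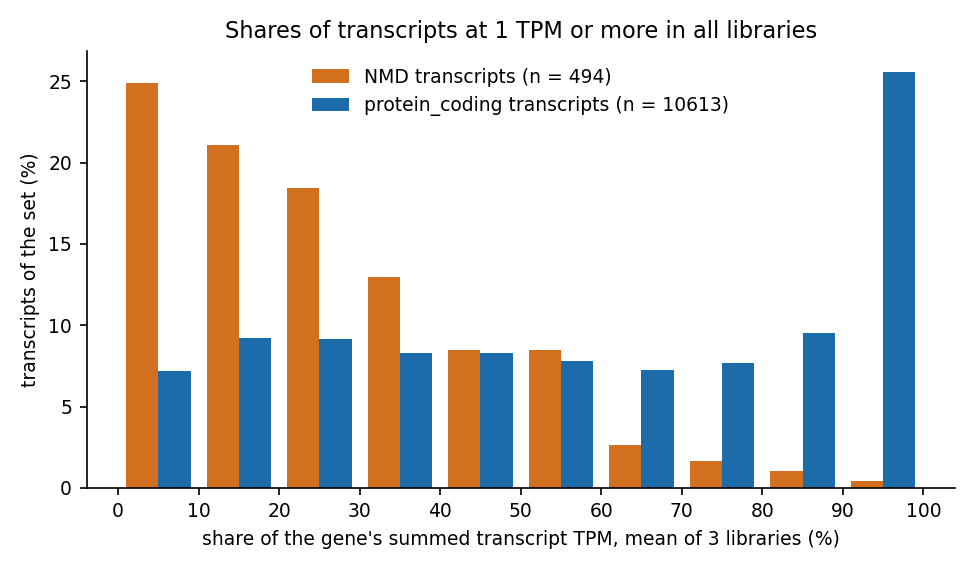
Percentage of transcripts (vertical axis) in each 10-point bin of the mean share of the gene's TPM (horizontal axis), for 494 NMD transcripts and 10613 protein_coding transcripts at 1 TPM or more in genes with 2 or more transcripts. The lowest bin holds 24.9% of the NMD transcripts and 7.21% of the protein_coding ones, and the top bin 0.405% and 25.6%.

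Levels of the NMD transcripts had a median of 3.14 TPM, and 324 were under 5, 78 at 10 or more and 5 at 100 or more. Among the 5 were Rgs1-204, Ppia-201, Lilr4b-204 and Oasl2-205. Rgs1 encodes a GTPase-activating protein that dampens signalling from chemokine receptors. Rgs1-204 stood at 443.54, 238.56 and 158.56 TPM in replicates 1, 2 and 3. Its level was highest in replicate 1 and lowest in replicate 3, while its share was nearly the same in all, at 59.1%, 58.8% and 60.3%, and at 56.0%, 55.4% and 58.4% in the second quantification. Most of the rest of the gene was a retained-intron transcript, Rgs1-203, with 35.7% ± 1.39 (SD, n = 3), and the coding partner Rgs1-208 held 3.51% ± 0.381. Rgs1-204 has no base of its own and 1 junction of its own.

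Ppia encodes cyclophilin A, an abundant proline isomerase. Ppia-201 stood at 282.93, 275.81 and 267.07 TPM, with shares of 63.8%, 67.3% and 65.4%. The coding Ppia-202 held 34.0% ± 1.55. In the second quantification the share of Ppia-201 was 68.0%, 77.7% and 73.0%. Ppia has processed pseudogene copies in the mouse genome, as have the ribosomal protein genes, so the assignment of reads to these genes is uncertain.

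Rpsa encodes a ribosomal protein of the small subunit. Rpsa-206 stood at 56.00, 48.88 and 54.42 TPM, and its shares of 55.9%, 47.8% and 58.8% were below the 73.2%, 72.4% and 74.0% of the second quantification in every library.

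Lilr4b and Lilrb4a encode near-identical immunoglobulin-like receptors of myeloid cells and lie side by side, so reads could pass between them and their values are uncertain. Lilr4b-204 stood at 130.65, 126.87 and 113.32 TPM, with shares of 37.7%, 40.4% and 44.5%, and 35.7%, 35.3% and 38.3% in the second quantification. Lilrb4a-205 stood at 131.30, 73.70 and 73.71 TPM, and its share was 73.7% in replicate 1 but 29.3% and 35.4% in the others. The second quantification also had the highest share in replicate 1, at 68.0%, 48.3% and 36.8%. Neither transcript has a base or junction of its own.

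Ctsh encodes cathepsin H, a lysosomal protease. Ctsh-202 stood at 74.64, 75.60 and 79.83 TPM with shares of 39.1%, 43.6% and 46.6%, but the second quantification gave 28.6%, 21.8% and 24.2%, below the first in all libraries. Ostf1 encodes an SH3-domain adaptor named for stimulating osteoclasts. Ostf1-205 stood at 75.34, 64.32 and 71.05 TPM with shares of 60.0%, 62.6% and 61.3%, and the second quantification gave 60.4%, 62.1% and 61.2%. Ostf1-205 has 77 bases and 2 junctions of its own.

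**Figure D3:**
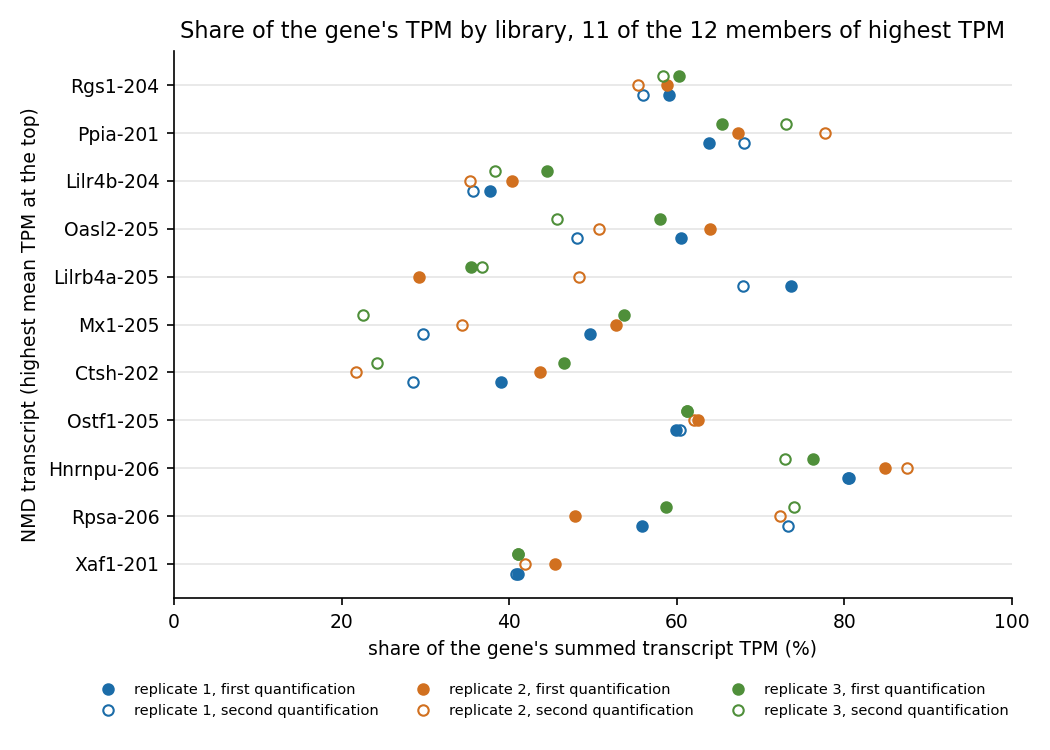
Share of the gene's summed TPM (horizontal axis, %) for 11 of the 12 NMD transcripts of highest mean TPM (vertical axis), with filled points for the first and open points for the second quantification and a colour for each replicate. Ostf1-205 stays at about the same share in all 6 values, while Lilrb4a-205 spans 29.3% to 73.7% between libraries and Mx1-205 and Ctsh-202 are lower in the second quantification.

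Apart from Hnrnpu-206, the transcripts with the 12 highest shares stood at mean levels of 2.99 to 13.8 TPM. Gm20716-201, at 7.18 ± 0.646 TPM, held 100% by construction. Next were Ifi214-201 with 96.1% ± 3.10, from an interferon-inducible gene of the PYHIN family, and Hyi-202 with 96.0% ± 4.46, from the gene of a hydroxypyruvate isomerase. Hyi-202 stood at 6.77, 6.32 and 6.58 TPM, and its coding partner Hyi-201 was listed at 0 in every library. Evi2-201 held 89.7% ± 9.67. Mrps14-201 and Mrpl32-201, from genes of mitochondrial ribosomal proteins, held 88.7% ± 5.28 and 84.1% ± 2.69. Aptx-205, from the gene of the DNA repair protein aprataxin, held 85.1% ± 2.73. Gga2-202 held 77.6% ± 7.33, Tsr2-203 held 77.4% ± 5.16, Pet100-206 held 76.0% ± 4.65 and Gtpbp4-201 held 74.8% ± 4.27; these genes serve Golgi sorting, ribosome maturation, cytochrome oxidase assembly and ribosome biogenesis.

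Hnrnpu-206, also of the 12, is described with the splicing regulators. Not all of these shares were as high in the second quantification. Ifi214-201 had 74.7% ± 19.5. Hyi-202, Mrps14-201, Mrpl32-201, Aptx-205, Tsr2-203 and Gtpbp4-201 had 94.9%, 87.5%, 86.1%, 82.0%, 80.3% and 71.1%. Evi2-201, Gga2-202 and Pet100-206 had 52.1%, 48.6% and 44.3%. In Pet100-206 and Gga2-202 the reading frame is the full one of the partner, with 76 and 603 residues, and 1 junction follows the stop. Of the 495 transcripts, 31 held 50% or more in all libraries of both quantifications, and 68 led their gene in all libraries of both.

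Splicing regulators held a larger part of their RNA in NMD transcripts than other gene lists did. The 118 listed genes had 29 of the 495 transcripts, in 22 genes, and 117 of the genes reached 1 TPM. NMD transcripts held 6.78%, 8.72% and 8.06% of the summed TPM of these genes, against 1.68%, 1.74% and 1.62% over all protein-coding genes at 1 TPM or more. The second quantification gave 9.07%, 10.8% and 10.3%. No replicate of any other list reached the lowest replicate of the splicing list. The median share of the 29 transcripts was 18.0%, slightly below the 22.1% of all 495, and 2 held 50% or more in all libraries. Of the 117 genes 75 (64.1%) have an NMD transcript annotated, against 31.1% of protein-coding genes at 1 TPM or more. One that passed the rule was held by 22 of the 75 (29.3%), against 16.6% of all genes at 1 TPM or more with an annotated NMD transcript. This does not set the splicing list apart. The percentage was higher in the interferon (44%), translation (40.4%), inflammatory (37.5%), lysosomal (33.3%) and mitochondrial (32.6%) lists. It was lower in the proteasome list (23.1%) and 0 in the NMD factor list. Under a fixed TPM minimum this percentage also depends on the level of the genes, so it does not rank the lists by share. The part of gene level in it was not tested.

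Hnrnpu-206 was the most abundant of the 29. Hnrnpu encodes a nuclear RNA-binding protein that tethers RNA to chromatin. Hnrnpu-206 stood at 57.06, 53.80 and 55.88 TPM, with shares of 80.5%, 84.8% and 76.3%, and the coding Hnrnpu-201 held 16.5% ± 2.28. The second quantification gave 80.6%, 87.5% and 72.9%. Its predicted protein has 793 residues and the partner's has 800, so only the end of the frame differs.

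Ddx5, an RNA helicase gene, had a pair of NMD transcripts that were highest in different libraries. Ddx5-205, the exon-skipping transcript, stood at 14.49, 34.45 and 16.19 TPM and was highest in replicate 2. Its shares of 7.28%, 17.0% and 10.7% were below the 19.9%, 25.8% and 20.2% of the second quantification. Ddx5-208, with the retained intron, stood at 9.79, 6.18 and 30.70 TPM and was highest in replicate 3, the library with the most nuclear RNA. Its shares of 4.92%, 3.04% and 20.3% were close to the 5.44%, 3.60% and 19.3% of the second quantification. Without replicate 3 its mean share was 3.98% in place of 9.43% and its mean level 7.99 in place of 15.6 TPM. The part that carried-over nuclear RNA plays in this was not tested.

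Srsf2 encodes an SR protein that promotes exon inclusion and is a textbook case of control through its own NMD transcripts. Srsf2-204 stood at 13.80, 22.52 and 18.41 TPM with shares of 42.4%, 53.8% and 46.1%. The second quantification gave 35.8%, 46.9% and 39.6%. The coding Srsf2-201 held 33.8% ± 8.46. The start of Srsf2-204 is annotated as incomplete and it has neither a base nor a junction of its own. Syncrip-203, from the gene of hnRNP Q, held 37.6% ± 5.52 and led its gene in all libraries of both quantifications. Hnrnpd-208, from the gene of the AU-rich element binder AUF1, held 33.7% ± 3.53 but 19.9% ± 2.85 in the second quantification. Tardbp-228, from the gene of TDP-43, held 20.0% ± 2.00 and Rbm39-225, from a spliceosome-associated factor gene, 18.8% ± 5.96, with 18.0% ± 3.04 and 20.4% ± 9.77 in the second quantification. Hnrnpa1-203 and Prpf4b-208 read the full frame, of 320 and 1007 residues, and held 21.7% ± 2.34 and 66.2% ± 4.23, with 22.2% ± 3.71 and 57.6% ± 5.33 in the second quantification.

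The machinery of NMD itself was expressed, with 32 of 32 listed genes at 1 TPM or more in all libraries. Their levels ran from 1.66 TPM for Upf3b to 249 TPM for Pabpc1, with a median of 7.47. Upf1, the central helicase, stood at 9.70, 8.23 and 9.25 TPM. Smg6, the endonuclease, stood at 2.07, 1.75 and 2.08 TPM, and Smg1, the kinase of UPF1, at 11.42, 8.37 and 12.44 TPM. Of the 32 genes 7 have NMD transcripts annotated, 10 in all. None of the 10 passed the rule, which kept 6.89% of all NMD transcripts, so the count of 0 does not set these genes apart. The highest was Smg6-202 with a mean of 0.307 TPM. NMD transcripts held 0.242%, 0.180% and 0.165% of the summed TPM of the 32 genes, and 0.733%, 0.498% and 0.733% in the second quantification.

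**Figure D4:**
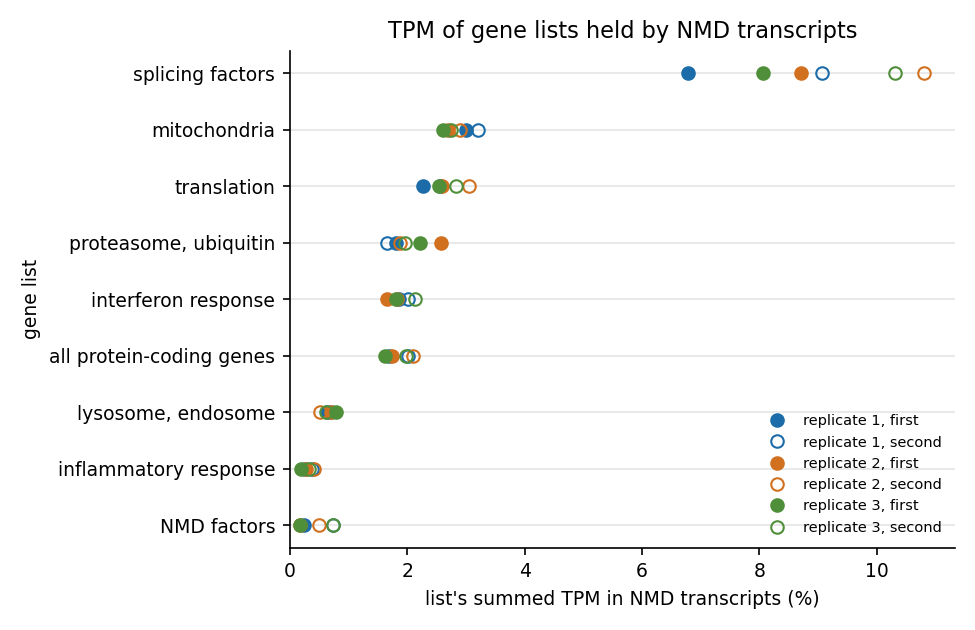
Percentage of the summed TPM of each gene list that NMD transcripts hold (horizontal axis), over list genes at 1 TPM or more, with filled points for the first and open points for the second quantification and a colour for each replicate. The splicing factors lie between 6.78% and 10.8%, above the other lists and above all protein-coding genes.

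Genes of the inflammatory response to Lipid A had little of their RNA in NMD transcripts. Over the 127 listed genes at 1 TPM or more it was 0.256%, 0.281% and 0.194%, and 0.375%, 0.412% and 0.333% in the second quantification. Only 24 of the 127 genes (18.9%) have an NMD transcript annotated, against 31.1% of protein-coding genes at 1 TPM or more, and the part of this in the low percentage was not tested. One that passed the rule was held by 9 of the 24 (37.5%), against 16.6% of all such genes at 1 TPM or more. This percentage also depends on the level of the genes and does not measure share. The transcripts that passed the rule were 11, in 9 of 132 listed genes, with a median share of 4.05%, and none held 50%. The highest was Cd40-207, from the gene of a co-stimulatory receptor, at 17.01, 15.86 and 8.93 TPM, with shares of 15.3%, 11.8% and 11.4%, and 20.9%, 18.2% and 14.2% in the second quantification. Clec4e-204, from the gene of the C-type lectin Mincle, stood at 12.10, 6.84 and 3.23 TPM, but its share was only 2.76%, 1.83% and 1.16%, and 4.68%, 3.84% and 1.72% in the second quantification. Il15-209, from a cytokine gene, held 11.4% ± 1.91 and, in the second quantification, 10.7% ± 2.23. Malt1-211, from a paracaspase gene, held 8.53% ± 1.26 and then 6.18% ± 1.96.

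Other shares in this list were mostly under 5% in the first quantification. Casp4-203, from the gene of the caspase that senses cytosolic lipopolysaccharide, held 4.05% ± 1.03 and, in the second quantification, 4.87%, 4.01% and 2.51%. Birc3-207, from a ubiquitin ligase gene, held 4.13% ± 2.02 and then 2.03% ± 1.07. Malt1-212 held 3.13% ± 1.12 but 10.3% ± 0.825 in the second quantification. Tnfaip2-209 held 0.739% ± 0.268 and Sod2-202, from the gene of the mitochondrial superoxide dismutase, 0.590% ± 0.195, and both stayed under 1% in the second quantification, at 0.972% and 0.490%. Nfkb1-207, from the gene of the NF-κB subunit p50, held 10.9% ± 2.08 in the first quantification and 0.0656% ± 0.0574 in the second. Its start is annotated as incomplete.

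Interferon-response genes lay between, with 13 such transcripts in 11 of 97 listed genes. NMD transcripts held 1.85%, 1.66% and 1.80% of their TPM, close to the value of all protein-coding genes. Of the 97 genes 25 have an NMD transcript annotated. One that passed the rule was held by 11 of the 25 (44%), against 16.6% of all such genes at 1 TPM or more. This percentage also depends on the level of the genes and does not measure share. The levels of the 13 transcripts were high, with a median of 12.3 TPM against 3.14 for all 495. Oasl2-205, from a gene of the oligoadenylate synthetase family, stood at 121.46, 111.82 and 104.40 TPM with shares of 60.6%, 64.0% and 58.0%, and 48.1%, 50.8% and 45.8% in the second quantification. Mx1 encodes an antiviral GTPase, and the gene of most inbred laboratory strains, C57BL/6 among them, lacks coding exons. Mx1-205 stood at 132.70, 56.30 and 80.41 TPM with shares of 49.7%, 52.7% and 53.7%, and the second quantification gave 29.8%, 34.4% and 22.6%. Mx1-210 and Mx1-203 held 5.46% ± 0.647 and 4.52% ± 0.584, but 10.6% ± 1.49 and 12.0% ± 1.57 in the second quantification. Without replicate 1 the mean level of Mx1-203 was 5.35 in place of 8.16 TPM.

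The guanylate-binding protein genes, whose products attack vacuoles of pathogens, gave 3 of the 13. Gbp6-203 stood at 53.24, 30.47 and 31.33 TPM with shares of 31.1%, 31.8% and 32.6%. Gbp4-202 held 52.8%, 49.5% and 49.0% and led its gene. Gbp5-202 held 9.96%, 10.4% and 10.3%, a range of less than 1 point. All 3 were highest in TPM in replicate 1, and their mean shares in the second quantification were 21.9%, 44.0% and 9.94%. Xaf1-201, from a pro-apoptotic gene, stood at 55.94, 37.13 and 32.27 TPM, with shares of 41.0%, 45.4% and 41.0%, and 40.8%, 41.9% and 41.0% in the second quantification. Oas1g-203 held 36.2%, 28.3% and 30.8%, but 61.0%, 62.3% and 54.5% in the second quantification. Psmb9-207, from an immunoproteasome gene, held 9.76% ± 2.07 but 17.0% ± 0.592 in the second quantification. Several of these genes belong to families of similar copies, so reads could be divided among them.

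Translation, mitochondrial, lysosomal and proteasome genes lay between the inflammatory and the splicing genes. Translation genes held 2.47% ± 0.176 in NMD transcripts, with 23 of the 495 in 19 genes and a median share of 18.5%. Mitochondrial genes held 2.76% ± 0.202, with 18 in 15 genes and a median share of 34.7%. Of the 18, 5 held 50% or more in all libraries, against 47 of 494 NMD transcripts (9.51%). One of the 5 was Atp5f1-203, of an ATP synthase subunit gene, at 32.98, 32.65 and 31.19 TPM with a share of 55.1% ± 4.09, a name chosen after its values were seen. Lysosomal and endosomal genes held 0.703% ± 0.0782 and proteasome and ubiquitin genes 2.20% ± 0.384. Among genes with an annotated NMD transcript, one that passed the rule was held by 19 of 47 translation genes (40.4%). For mitochondrial genes it was 15 of 46 (32.6%), against 16.6% of all such genes at 1 TPM or more. These percentages also depend on the level of the genes. In genes known in general for NMD control, 8 of the 495 lay in 7 genes, and NMD transcripts held 4.74% ± 0.493, and 3.35% ± 0.703 in the second quantification. This last list shares genes with the splicing and translation lists.

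Replicate 1 most often had the highest level. Of the 495 transcripts, 296 (59.8%) were highest in TPM in replicate 1, 123 (24.8%) in replicate 2 and 76 (15.4%) in replicate 3. Over all 13304 transcripts at 1 TPM or more these percentages were 62.6%, 21% and 16.4%, close to those of the NMD transcripts. Of the fixed total of TPM, protein-coding genes held 324571, 264772 and 270981 in replicates 1, 2 and 3. The rest lay in other rows, so levels between libraries are not on a scale of mRNA alone. The median log2(TPM + 1) of a transcript in replicate 1, against the mean of the others, was higher by 0.16 for the 495 and by 0.18 for all, and the sign turned when TPM was rescaled to the genes coding for proteins or long noncoding RNAs (-0.0378 and -0.0430). The range of share over libraries was under 5 points in 215 transcripts and over 20 points in 18.

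The 5 widest ranges were those of Lilrb4a-205, described above, Dbndd2-206, Smc4-207, Paxbp1-201 and Dnajc1-207. Dbndd2-206 held 31.0%, 33.2% and 72.0%, highest in replicate 3. Smc4-207, from the gene of a condensin subunit, held 52.6%, 20.4% and 19.1%, highest in replicate 1, and its mean share without that library was 19.7% in place of 30.7%. Paxbp1-201 held 49.5%, 66.2% and 35.6%, and Dnajc1-207 held 9.94%, 40.5% and 25.3%, both highest in replicate 2. The mean level of Smc4-207 without replicate 1 was 1.26 in place of 2.31 TPM, and that of Dnajc1-207 without replicate 2 was 1.88 in place of 2.84 TPM. The second quantification had the highest share in the same replicate for all 5.

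The threshold itself split close values. Just inside it were Adhfe1-201, Isy1-206 and Mpdu1-202, with a lowest value of 1 TPM. Just outside were Clk1-210, Cyth2-204 and Hnrnpl-213, with a lowest value of 0.99. Their shares ranged from 7.87% to 72.0% inside and from 1.97% to 11.4% outside. The deposited lower bound of the TPM interval, whose level is not stated, was at least 1 in all libraries for 338 of the 495 and under 0.1 in some library for 10. The expected count of a member was at least 100 in all libraries for 362, and its median was 243, 545 and 317 in replicates 1, 2 and 3.

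The second quantification gave a lower median share, and single transcripts scattered widely between the 2. The median of the mean share was 22.1% in the first and 19.9% in the second, where it was 20.2%, 20.9% and 18.6% in replicates 1, 2 and 3. The difference within a transcript, second minus first, had a median of 0.0429 points, with quartiles of -6.86 and 4.23. That median turned negative without replicate 1 or 2, at -0.0686 and -0.0347. Over all transcripts at 1 TPM or more in genes with 2 or more transcripts, the median share was also lower, at 52.3% and then 47.2%. Their median difference was -2.22 points. Both sets were chosen on the first quantification, and the part of this choice in the lower medians was not tested. In the second quantification 251 of the 495 were higher. The difference was within 5 points for 252 transcripts, within 10 for 354 and over 20 for 41. The share in the second was under 50% of the first in all libraries for 53 of 494 (10.7%), against 5.83% of all transcripts, and over double the first for 16 (3.24%), against 1.14%. The second quantification had 288 of 495 (58.2%) at 1 TPM or more in all libraries, against 69.9% of all transcripts at 1 TPM in the first. The same minimum is not alike in both, since levels could be lower in the second at a nearly equal share. Mean TPM was 7.18 and then 2.66 for Gm20716-201, 55.6 and 28.6 for Hnrnpu-206, and 70.2 and 34.1 for Ostf1-205. These counts therefore do not measure the assignment of reads alone.

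Transcripts with an incomplete start had lower shares in the second quantification. Their median share was 19.9% in the first quantification and 10.3% in the second, over 130 transcripts, against 23.1% and 22.7% for the other 365. The other 365 did not move together, as the median went from 25.1% to 18.8% for the 101 with a skipped exon and from 20.3% to 25.9% for the 87 with an included exon. Transcripts with an incomplete start gave 33 of the 53 transcripts under 50% of the first. These were 25.4% of the 130, against 20 of the other 365 (5.48%), which is near the 5.83% of all transcripts. In contrast, transcripts with no base or junction of their own did not stand out, with 57.8% at 1 TPM or more in the second against 58.3% of the rest, and a median absolute difference of 4.62 against 4.98 points.

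**Figure D5:**
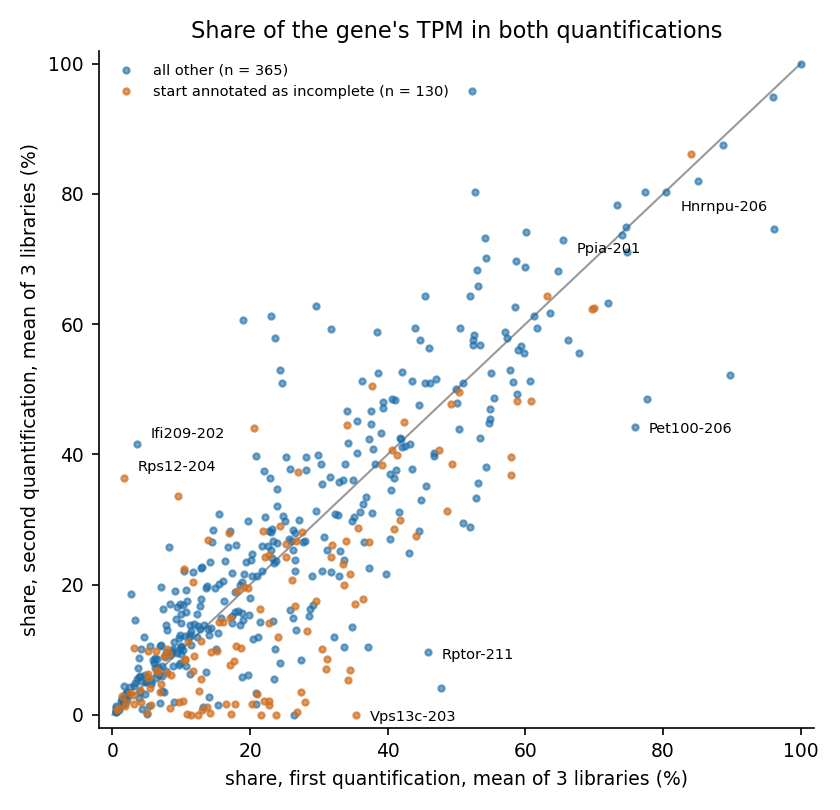
Mean share of the gene's TPM in the first (horizontal axis, %) and the second quantification (vertical axis, %) for the 495 NMD transcripts, with those of incomplete start in orange and a line of equal shares. In the second quantification 13 of the 130 orange points lie under 1%, against 8 of the other 365. The median of the orange points is 10.3% there against 19.9% in the first.

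The transcripts whose share was most above that of the first quantification in the second were Gm42715-201, Srsf6-201, Pnpla2-201, Ifi209-202 and Rps12-204. Srsf6-201, from the gene of an SR protein, held 21.8%, 22.5% and 12.6%, and then 60.5%, 73.1% and 48.2%. Pnpla2-201, from the gene of the adipose triglyceride lipase, had 32.5%, 11.1% and 25.4%, and then 59.0%, 63.9% and 61.0%. Rps12-204, from a ribosomal protein gene, had 1.32%, 1.80% and 1.79%, and then 42.1%, 27.7% and 39.5%. Ifi209-202, from a PYHIN gene, had 5.08%, 2.84% and 2.90%, and then 39.0%, 46.0% and 39.8%, and its mean level without replicate 1 was 2.65 in place of 4.76 TPM.

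Those whose share was most below it were Gm42715-202, Evi2-201, Rptor-211, Vps13c-203 and Pet100-206. Gm42715-201 and Gm42715-202 share a gene, so what 1 gains the other loses, at 52.2% and 47.8% in the first quantification against 95.9% and 4.13%. Rptor-211, from the gene of the mTORC1 subunit raptor, held 52.4%, 47.5% and 37.5% and then 13.9%, 9.37% and 5.63%. Vps13c-203, from the gene of a lipid transfer protein, held 39.5%, 33.1% and 33.5% and was listed at 0 in the second quantification. For all 10 transcripts the 3 values of the first quantification lay apart from the 3 of the second, as the choice of the largest differences favours, and which of them is closer to the cells was not tested.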

How the data were processed

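The submitters deposited, for each library, a pair of transcript tables and a gene table. Per the file headers, the first transcript table and the gene table hold the authors' expected counts and TPM, with bounds of an interval on TPM, and the second transcript table holds the authors' estimated counts and TPM. Per the libraries' file lists, the build is mm10 and the annotation GENCODE M21. Which aligner and quantifiers made them is not given in the sources used here. The deposited TPM were taken over all rows, tRNA and spike-in rows included, and were used as they stand.

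Transcripts were joined by versioned ID, and 141767 mouse transcripts were in both tables. The transcript type came from the second table. Shares were computed per gene and library, without rounding counts or a filter other than 1 TPM. Exons, reading frames and stop codons came from the M21 annotation, and sequences from its transcripts. The walk along reading frames and the shares were tested on simulated tables. Python 3.11.15, numpy 2.4.6, pandas 2.3.3 and matplotlib 3.10.9 were used.

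With 1 group, no test was made. Errors are SDs over 3 libraries. Counts per transcript limit the precision, and they are given above for the set and not for each named transcript. The intervals cover counting and assignment error only. The transcripts and gene lists were chosen with earlier results of these data known. Some lists were taken by symbol pattern. The transcripts named are the 12 of highest mean TPM, the 12 of highest mean share, up to 10 of each list of NMD factors, splicing, inflammatory and interferon genes, the 5 with the largest change of share in each direction between quantifications, the 5 with the widest range and 3 on each side of the threshold. One of these transcripts is counted but not reported here. Printed sequences run from 12 bases before the frames part to the stop codon, chosen after the values were seen. Alternatives were other TPM minimums, rescaled TPM, the second quantification, shares over coding and NMD transcripts only, another pseudocount and leaving out each library. Limiting the set to transcripts with a base or junction of their own, and leaving out libraries for the named shares, were added after seeing the data.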

Additional observations from a re-analysis of the deposited data

How the results depend on the processing

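The number of NMD transcripts, 495, was 759 at a minimum of 0.5 TPM and 292 at 2 TPM. It was 996 on TPM rescaled to the genes coding for proteins or long noncoding RNAs. With no minimum it was 4237, which counts transcripts above 0 in any library, whereas 2236 were above 0 in all. It was 354 when the second quantification chose the transcripts. The median share of 22.1% was 17.2%, 27.5%, 14.1% and 3.03% under the same first 4 settings, 26.6% for the 354 that the second quantification chose, with its shares, 24.2% over coding and NMD transcripts only, and 20.2% to 21.7% when each library was left out. The number with 50% or more of the gene, 48 with Gm20716-201, was 60 at 0.5 TPM, 40 at 2 TPM and 101 with no minimum. It was 70 on rescaled TPM, 70 over coding and NMD transcripts only, and 47 for those that the second quantification chose. Leaving out each library gave 54 to 59. The number at 1 TPM in the second quantification, 288, was 852 on rescaled TPM, where 996 passed in the first. The median difference of share between quantifications, 0.0429 points, was -0.129 at 2 TPM, 0.349 over coding and NMD transcripts only, and -0.0686 to 0.0617 when each library was left out. It is near 0, and its sign is not settled.

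The level of replicate 1 against the others, 0.16 on the log2 scale, was -0.0378 on rescaled TPM and -0.0611 in the second quantification. That of replicate 2, -0.07, was 0.0678 and 0.14. The cause was not tested. Of 63 named shares, 42 moved by more than 1 SD over libraries in the second quantification and 13 over coding and NMD transcripts only. No paired analysis was possible because there is 1 group. Limiting the set to the 412 transcripts with a base or junction of their own gave a median share of 22.7%.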
